A study of Homo sapiens with 24 samples.

Results

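Ribosome biogenesis genes, which encode the nucleolar factors that make and process ribosomal RNA (rRNA) and assemble the subunits, were followed with MYC across 8 groups of human prostate cancer cultures. The set has 41 genes, MYC and 40 assembly factors, chosen by function and with earlier results of these data known. The ribosomal proteins themselves were left out. For each gene the probe with the highest mean intensity among its detected probes was used. This gave values for 37 of the 41 genes, among 13789 genes measured in all. WDR43 and GNL3 had no probe named for them, and the probes of TCOF1 and NPM1 were detected on fewer than 3 arrays and were left out. Of the 37, 36 were detected on all 24 arrays and UTP20 on 22.

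LNCaP is an androgen-dependent line, and C4-2B is a subline derived from it that grows with little androgen. Cells of each line received the solvent DMSO or 1 µM EPZ6438 (tazemetostat, an inhibitor of the catalytic activity of the histone methyltransferase EZH2) for 3 days. Other cultures of each line received a control siRNA (siControl) or 1 directed at EZH2, marked CDS in the labels (siEZH2), also for 3 days. All cells grew in RPMI medium with serum, and each of the 8 groups had 3 Illumina bead arrays. The replicates are numbered, but nothing says that they were separate cultures, so p-values measure the spread between arrays, which may be technical. Each line is a single cell line, and a single siRNA treatment was used. In such bulk RNA, fewer cells of a type and less RNA per cell cannot be told apart.

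In the nucleolus, RNA polymerase I copies the rRNA precursor, small nucleolar ribonucleoproteins (snoRNPs) of the box C/D class methylate it and those of the box H/ACA class convert uridines to pseudouridine. Assembly factors then cut, fold and export the small and large subunits. MYC is a transcription factor that pairs with MAX and binds the E-box CACGTG, and ribosome biogenesis genes are among its best known targets. EZH2 is the enzyme of Polycomb repressive complex 2 and methylates histone H3.

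Promoter sequence is shown for members whose changes are described below, to set their start sites beside one another. Sequences and coordinates are from RefSeq (GRCh38.p14), 5′ to 3′ on the strand of the gene, and capitals mark each CACGTG, which reads the same on both strands. The 250 bases upstream of a start are given for NOP56, the member that fell most with EPZ6438 in LNCaP (chr20:2652382-2652631, plus strand), for LYAR (chr4:4290022-4290271, minus strand, the more 3′ of 2 listed starts), for NOP10, which differed little in that comparison (chr15:34343137-34343386, minus strand), and for EMG1, the member that fell most with siEZH2 (chr12:6970663-6970912, plus strand).
NOP56: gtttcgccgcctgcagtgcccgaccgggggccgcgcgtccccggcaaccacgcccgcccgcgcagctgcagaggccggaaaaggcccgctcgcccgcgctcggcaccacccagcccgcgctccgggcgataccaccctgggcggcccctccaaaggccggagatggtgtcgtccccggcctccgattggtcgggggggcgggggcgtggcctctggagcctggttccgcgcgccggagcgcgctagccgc
LYAR: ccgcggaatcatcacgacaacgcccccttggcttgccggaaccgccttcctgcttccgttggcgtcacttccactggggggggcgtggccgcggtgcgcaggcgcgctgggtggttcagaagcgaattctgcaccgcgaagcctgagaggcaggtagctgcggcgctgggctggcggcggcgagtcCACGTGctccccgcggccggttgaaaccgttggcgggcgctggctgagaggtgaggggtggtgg
NOP10: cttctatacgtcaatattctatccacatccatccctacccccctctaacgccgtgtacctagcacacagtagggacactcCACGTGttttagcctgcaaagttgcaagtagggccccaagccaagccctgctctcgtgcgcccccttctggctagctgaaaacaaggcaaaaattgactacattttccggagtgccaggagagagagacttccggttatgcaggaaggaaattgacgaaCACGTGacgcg
EMG1: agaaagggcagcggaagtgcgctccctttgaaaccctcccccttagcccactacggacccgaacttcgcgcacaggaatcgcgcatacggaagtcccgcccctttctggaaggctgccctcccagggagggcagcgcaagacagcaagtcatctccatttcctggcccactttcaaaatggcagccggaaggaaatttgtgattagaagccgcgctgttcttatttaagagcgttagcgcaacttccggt
LYAR had 1 CACGTG, whose first base lay at −64 from the start, NOP10 had 2, at −170 and −11, and NOP56 and EMG1 had none in this window.

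In 8 members the motif lay just after a listed start, and 30 bases around it are given for the 3 of them that fell with EPZ6438 in LNCaP. The others are FBL (first motif base at 6), PES1 (13) and BYSL (28), which did not pass the test there, and WDR43 (3) and GNL3 (6), which were not measured. The 3 shown are MRTO4 (chr1:19251807-19251836, plus strand, first motif base at 14), NOP2 (chr12:6568242-6568271, minus strand, at 35) and GAR1 (chr4:109815781-109815810, plus strand, at 31).
MRTO4: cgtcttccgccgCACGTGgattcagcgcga
NOP2: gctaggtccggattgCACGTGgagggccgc
GAR1: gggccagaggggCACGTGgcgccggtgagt
Over windows of 300 bases (250 before and 50 after a start), CACGTG was present in 2548 of 35116 promoters (7.26%) and for 2396 of 27305 genes (8.77%). It was present for 14 of the 32 members with an entry (43.8%), in 14 of their 40 promoters (35%). Of the 7 members with an entry that fell with EPZ6438 in LNCaP, 4 held it (57.1%), and of 22 other measured members 8 held it (36.4%). NAF1, NOLC1, NOP58, RRP1B and RRS1, which also fell there, had no entry and are not in these shares. The 27305 genes include genes not measured here and were not matched to the members for base composition, so the shares are not like for like. A match is a description of the letters, not a binding site.

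Each array detected 19304 to 21653 of its 47311 probes, and precision is limited by how few arrays each group has. EZH2 mRNA, the target of the siRNA, fell by 0.87 ± 0.16 in LNCaP and by 1.02 ± 0.16 in C4-2B on the log2 scale (limma, adjusted p = 0.000174 and 7.16e-05). All 8 measured prostate epithelial markers were detected on the 24 arrays, and neither KRT5 nor KRT14 of basal epithelium was detected on any. Of 4 blood cell markers with a probe, PTPRC was detected on 0 arrays, CD3E on 1, LYZ on 19 and CD14 on 20, the last 2 at log2 intensities of 4.27 to 5.49. Of 8 fibroblast and endothelial markers, LUM and CDH5 were detected on 0 arrays, PECAM1 on 1, COL3A1 on 2, DCN on 3, COL1A2 on 4, COL1A1 on 21 and VWF on 24. Differences below are log2 differences ± standard error (SE) from 1 limma fit to all 24 arrays, with 3 arrays in each group. Each p is adjusted over the 13789 genes by the Benjamini-Hochberg method, and a gene is said to rise or fall when it is under 0.05.

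MYC (chr8:127735434-127742951) did not pass the test in any of 10 comparisons. Its log2 intensities were 10.92, 10.96 and 11.15 on the LNCaP DMSO arrays and 10.83, 11.10 and 10.93 with EPZ6438. In C4-2B they were 11.08, 11.17 and 11.30 with DMSO and 11.21, 11.02 and 11.07 with EPZ6438. The DMSO and EPZ6438 arrays overlapped in both lines. EPZ6438 minus DMSO was −0.06 ± 0.10 in LNCaP (95% interval −0.26 to 0.15, limma adjusted p = 0.81) and −0.08 ± 0.10 in C4-2B (−0.29 to 0.12, adjusted p = 0.661).

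With siControl, MYC was at 10.60, 10.57 and 10.61 in LNCaP and at 10.66, 10.39 and 10.72 in C4-2B. With siEZH2 it was at 10.45, 10.48 and 10.38 in LNCaP and at 10.77, 10.77 and 10.83 in C4-2B. The groups did not overlap in either line, with siEZH2 below siControl in LNCaP and above it in C4-2B, as for 20.9% of all genes lower in LNCaP and 18.1% higher in C4-2B. The differences were −0.15 ± 0.10 (−0.36 to 0.05, limma adjusted p = 0.281) and 0.20 ± 0.10 (−0.01 to 0.40, adjusted p = 0.18). The difference between the 2 effects was 0.35 ± 0.14 (adjusted p = 0.147). A second MYC probe gave 0.25 with siEZH2 in LNCaP and 0.07 in C4-2B, and −0.07 and 0.10 with EPZ6438, so the 2 probes had opposite signs for siEZH2 in LNCaP and for EPZ6438 in C4-2B. Scaling each array to its all-probe median also turned the siEZH2 difference in LNCaP, to 0.11.

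**Figure D1:**
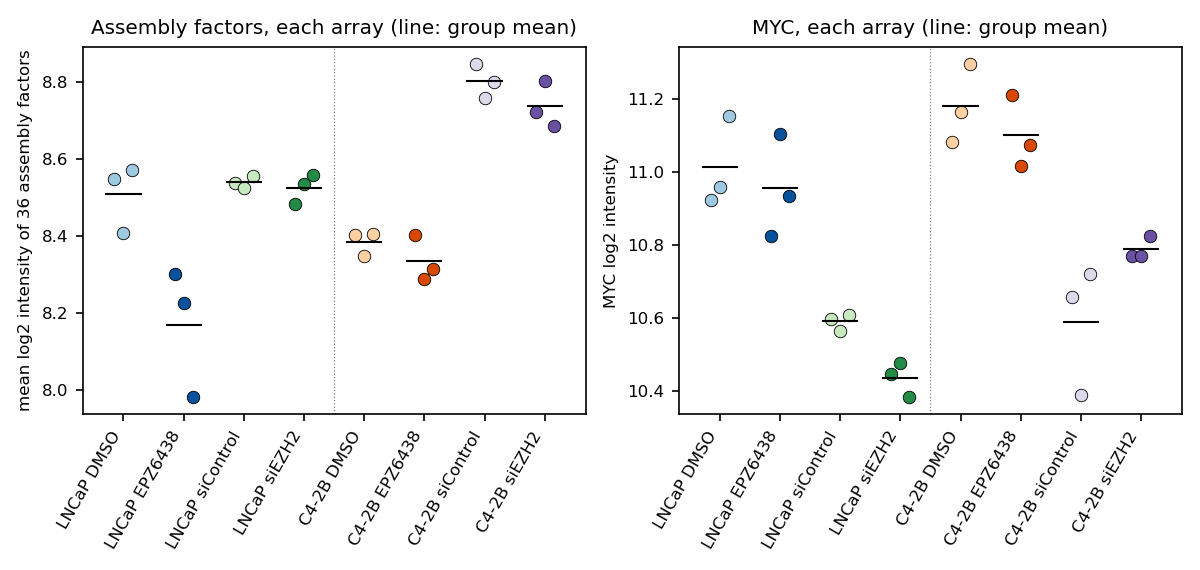
Mean log2 intensity of the 36 measured assembly factors (left) and log2 intensity of MYC (right) on each array, with the 3 arrays of a group as points and their mean as a line; the vertical axes do not start at 0. The LNCaP EPZ6438 arrays (7.98 to 8.30) lie below the LNCaP DMSO arrays (8.41 to 8.57) for the assembly factors, while the MYC arrays of these groups overlap.

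EPZ6438 was compared with DMSO in LNCaP to see how the set responded when EZH2 catalysis was inhibited. Of the 37 members, 12 fell and none rose (22 had an unadjusted p under 0.05, against 21.4% of all genes), where limma called 6.68% of all genes, 2.68% lower and 4% higher. The median difference was −0.32 over the members and 0.01 over all genes, and 34 of 37 differences were negative. The arrays of the groups did not overlap for 19 members, all lower with EPZ6438 (9.94% of all genes). The mean over the 36 assembly factors was 8.55, 8.41 and 8.57 on the DMSO arrays and 8.30, 8.22 and 7.98 on the EPZ6438 arrays, so replicate 3 with EPZ6438 was lowest.

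The box C/D snoRNP, which adds methyl groups to rRNA, had 2 of 3 members lower. NOP56 (chr20:2652632-2658393), a core protein of this particle, was at 10.80, 10.57 and 10.88 with DMSO and at 10.15, 9.80 and 9.58 with EPZ6438. Every EPZ6438 array was below every DMSO array, and NOP56 fell by 0.91 ± 0.12 (limma adjusted p = 9.29e-05). Its 2 other probes gave −0.70 and −0.60. NOP58 (chr2:202265763-202303661), the partner of NOP56 in the particle, was at 10.40, 10.38 and 10.42 with DMSO and at 10.06, 9.83 and 9.41 with EPZ6438. The DMSO arrays lay close together and the EPZ6438 arrays were spread below them, a fall of 0.63 ± 0.12 (adjusted p = 0.00321). FBL, the methyltransferase of the particle, differed by −0.28 ± 0.10 and did not pass the test (adjusted p = 0.104).

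Among the box H/ACA factors 2 of 5 fell. NAF1 (chr4:163103929-163166890), which loads the particle during its assembly, was at 5.61, 6.09 and 6.07 with DMSO and at 5.27, 5.17 and 4.84 with EPZ6438. These arrays did not overlap, and NAF1 fell by 0.83 ± 0.16 (limma adjusted p = 0.00217). GAR1, a core protein of the mature particle, was at 9.52, 9.38 and 9.49 with DMSO and at 9.16, 9.14 and 8.82 with EPZ6438. It fell by 0.43 ± 0.11 (adjusted p = 0.0184), and its 3 other probes gave −0.33 to −0.42. DKC1, the pseudouridine synthase, differed by −0.19 ± 0.10 and NOP10, a small core protein whose promoter is shown above, by 0.02 ± 0.08, neither past the test.

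Of 5 measured genes of rRNA synthesis and its nucleolar scaffold 1 fell. NOLC1 (chr10:102152389-102163870), a phosphoprotein that links RNA polymerase I and snoRNPs, was at 8.45, 8.30 and 8.39 with DMSO and at 7.85, 7.80 and 7.52 with EPZ6438. The groups were well apart, and NOLC1 fell by 0.65 ± 0.10 (limma adjusted p = 0.000286). POLR1B and POLR1C, polymerase subunits, NCL (nucleolin) and the helicase gene DDX21 had differences from −0.32 to −0.21 that did not pass. Of these, NCL came closest (−0.32 ± 0.10, adjusted p = 0.0577).

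The large subunit factors held 6 of the 12 members that fell, among 12 measured. NOP16 (chr5:176383946-176388598) was at 8.91, 8.62 and 8.66 with DMSO and at 8.50, 8.16 and 7.65 with EPZ6438. Its arrays did not overlap but those with EPZ6438 were widely spread, and it fell by 0.62 ± 0.15 (limma adjusted p = 0.0144). GRWD1, a histone-binding nucleolar protein, fell by 0.51 ± 0.11 (adjusted p = 0.00713) and MRTO4, which holds the place of the stalk protein on the maturing subunit, by 0.50 ± 0.14 (adjusted p = 0.0361). RRP1B, RRS1 and the rRNA cytosine methyltransferase gene NOP2, named after their values were seen, fell by 0.49, 0.49 and 0.45. For RRS1 the arrays overlapped, with 8.41, 8.10 and 8.60 against 7.90, 8.16 and 7.59. PES1, BOP1 and WDR12, which form 1 complex on the large subunit, did not pass the test, with −0.39 ± 0.24 for PES1 (adjusted p = 0.372), −0.24 ± 0.12 for BOP1 and a WDR12 interval from −0.26 to 0.25. WDR74 had the highest difference of the set (0.49 ± 0.26, adjusted p = 0.28).

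None of the 9 measured small subunit factors fell in this fit, although 8 of the 9 differences were negative and their median was −0.29. RRP12, an export factor, missed the threshold narrowly (−0.36 ± 0.11, limma adjusted p = 0.0508), and UTP14A, a protein of the small subunit processome, did not pass either (−0.36 ± 0.12, adjusted p = 0.0652). Of the nucleolar chaperones LYAR (chr4:4267701-4290154), a nucleolar zinc finger protein that acts in rRNA transcription and processing, was at 9.41, 9.36 and 9.43 with DMSO. With EPZ6438 it was at 8.70, 8.82 and 8.17. The DMSO arrays were tightly grouped above all EPZ6438 arrays, and LYAR fell by 0.84 ± 0.13 (adjusted p = 0.000437), with −0.75 from its other probe. NPM3, a histone chaperone related to nucleophosmin, differed by −0.17 ± 0.10 (adjusted p = 0.318). All 9 further probes of the members that fell had negative differences.

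The count depended on single libraries and on the scaling. It was 5 without EPZ6438 replicate 3 (LYAR, NAF1, NOLC1, NOP56 and NOP58), 18 without EPZ6438 replicate 1, and 6 and 7 without DMSO replicates 1 and 3. It was 0 with arrays scaled to their all-probe median, where 28 of all genes passed, and 0 in a fit to only these 6 arrays, where 53 of all genes passed, with medians over the members of −0.34 and −0.32.

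**Figure D2:**
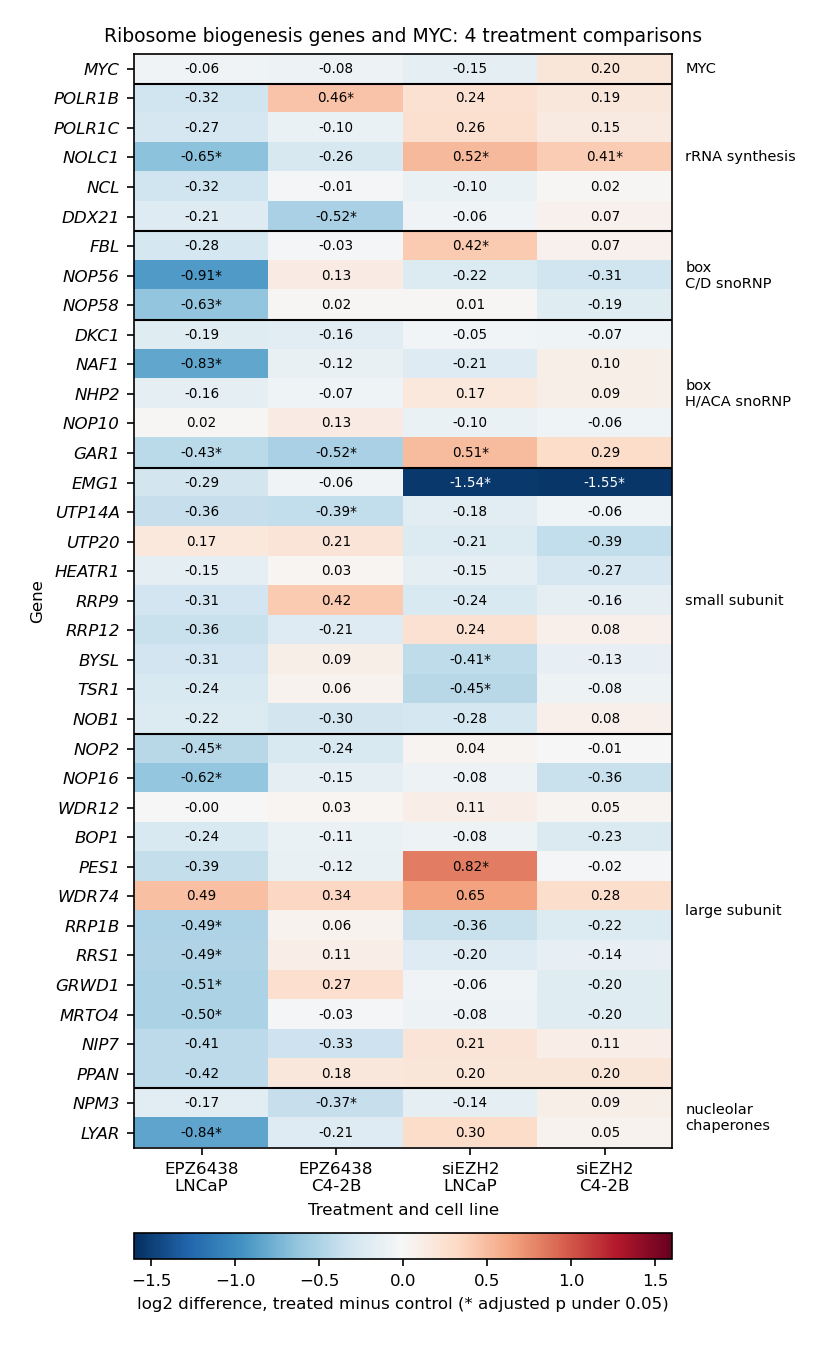
Log2 differences of the 37 measured members in the 4 treatment comparisons, ordered by role, with colour and printed value giving the difference (treated minus control, 3 arrays a group) and an asterisk marking an adjusted p under 0.05. The EPZ6438 column of LNCaP is negative for 34 of 37 members, and EMG1 stands out with −1.54 and −1.55 in the siEZH2 columns.

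In C4-2B, EPZ6438 was followed by a decrease of 4 members and an increase of 1, where limma called 15.2% of all genes (7.04% lower and 8.14% higher). The median difference was −0.06, and 22 of 37 were negative. The mean over the assembly factors ranged from 8.35 to 8.40 with DMSO and from 8.29 to 8.40 with EPZ6438. DDX21 (chr10:68956170-68985068), an RNA helicase of polymerase I transcription and rRNA processing, was at 11.25, 11.12 and 11.04 with DMSO and at 10.64, 10.68 and 10.53 with EPZ6438. Every EPZ6438 array was lower, a fall of 0.52 ± 0.10 (adjusted p = 0.00094). GAR1 was at 9.45, 9.35 and 9.68 with DMSO and at 8.95, 8.93 and 9.06 with EPZ6438. It fell by 0.52 ± 0.11 (adjusted p = 0.00142), with −0.46 to −0.68 from its other probes, and was the 1 member that fell with the inhibitor in both lines.

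UTP14A fell by 0.39 ± 0.12 (limma adjusted p = 0.0253) and NPM3 by 0.37 ± 0.10 (adjusted p = 0.0099) in C4-2B. POLR1B, the second largest polymerase I subunit, was at 5.37, 5.21 and 4.83 with DMSO and at 5.44, 5.70 and 5.67 with EPZ6438. It rose by 0.46 ± 0.14 (adjusted p = 0.0303), but its other probe gave −0.03 and the call was lost in 8 of 16 other settings. The members that fell most in LNCaP differed little here, NOP56 by 0.13 ± 0.12, NOP58 by 0.02 ± 0.12 and NAF1 by −0.12 ± 0.16, none past the test. LYAR was at 9.20, 9.09 and 9.64 with DMSO and at 9.14, 9.00 and 9.15 with EPZ6438, overlapping groups that differed by −0.21 ± 0.13 (adjusted p = 0.334). Scaling to the all-probe median left no member called, with 265 of all genes past the test, and a fit to these 6 arrays left 2.

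The EPZ6438 effects of the lines were then compared directly. For 6 members the effect in C4-2B was above that in LNCaP, and for none below it (16 had an unadjusted p under 0.05, against 19.6% of all genes), where limma called 6.67% of all genes (3.24% higher and 3.43% lower). The gap was 1.04 ± 0.17 for NOP56 (adjusted p = 0.000293), 0.78 ± 0.16 for GRWD1 (adjusted p = 0.00288) and 0.65 ± 0.18 for NOP58 (adjusted p = 0.025). POLR1B gave 0.78 ± 0.20, with opposite signs for the gap from its 2 probes. LYAR (0.63 ± 0.19) and RRS1 (0.59 ± 0.18) passed narrowly, with adjusted p of 0.043 and 0.0498. For GAR1 the effects of the lines differed by −0.09 ± 0.15, with a 95% interval from −0.40 to 0.23. The count was 2 without LNCaP DMSO replicate 3 (NOP56 and GRWD1), 10 without LNCaP EPZ6438 replicate 1, and 0 with scaling to the all-probe median.

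**Figure D3:**
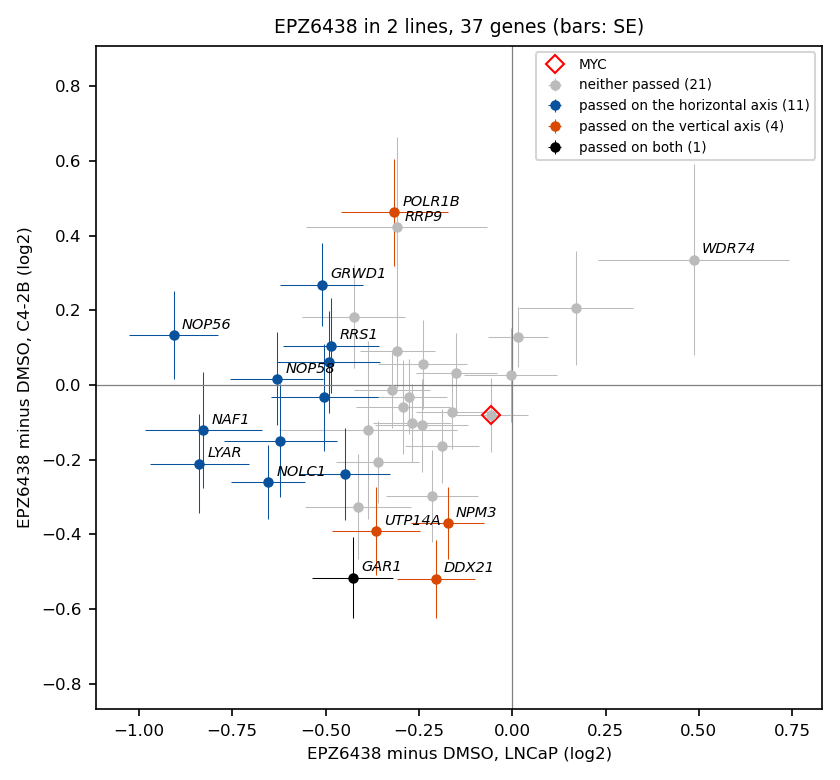
EPZ6438 minus DMSO log2 difference of each of 37 members in LNCaP (horizontal) and C4-2B (vertical), with bars of 1 SE and colours for the comparison in which a member passed the test (11 in LNCaP, 4 in C4-2B, 1 in both). Most points lie left of 0 in LNCaP, and GAR1 is the member that passed in both.

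With EPZ6438, DNA replication genes moved with the members in LNCaP and in the comparison of the lines. In C4-2B they did not, and 10 of them rose while 4 members fell and 1 rose. Of 38 measured, 19 fell and none rose with EPZ6438 in LNCaP (50%, against 6.68% of all genes, median −0.45). In C4-2B 10 rose and none fell (26.3%, against 15.2%, median 0.14). Their median per array ranged from 8.41 to 8.56 with DMSO and from 7.61 to 7.98 with EPZ6438 in LNCaP. In C4-2B it ranged from 7.16 to 7.68 and from 7.75 to 7.88. With siEZH2 2 rose and 11 fell in LNCaP (34.2%, against 26.7% of all genes, median −0.19), where 4 members rose and 3 fell. In C4-2B none rose and 24 fell with siEZH2 (63.2%, against 18.7% of all genes), where 1 member rose and 1 fell. The siEZH2 effect in C4-2B was below the EPZ6438 effect for 20 replication genes (52.6%, against 13.9% of all genes). For the members it was above the EPZ6438 effect for 4 and below it for 1. The part of the replication genes in the decrease of the members was not tested.

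Cells with siEZH2 were set against siControl cells to see how the set responded to the siRNA directed at EZH2. In LNCaP 4 members rose and 3 fell, where limma called 26.7% of all genes (14.2% higher and 12.5% lower). The median over the members was −0.08 and that over all genes 0.02, and with scaling to the all-probe median these became 0.20 and 0.18. EMG1 (chr12:6970913-6997428), a pseudouridine methyltransferase of the small subunit, was at 9.16, 9.18 and 9.15 with siControl and at 7.60, 7.70 and 7.56 with siEZH2. Both groups were tight and far apart, and EMG1 fell by 1.54 ± 0.13 (adjusted p = 2.33e-09). The other small subunit factors that fell were TSR1, a factor of late maturation (0.45 ± 0.12, adjusted p = 0.00666), and BYSL, a component of the early small subunit particle (0.41 ± 0.10, adjusted p = 0.00336). A second TSR1 probe gave −0.04.

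PES1 (chr22:30576625-30607013), named above as a large subunit factor, was at 7.09, 7.13 and 7.18 with siControl and at 8.11, 7.72 and 8.03 with siEZH2 in LNCaP. It rose by 0.82 ± 0.24 (limma adjusted p = 0.0121). NOLC1 was at 8.43, 8.50 and 8.38 with siControl and at 9.04, 9.01 and 8.83 with siEZH2, groups that did not overlap, and rose by 0.52 ± 0.10 (adjusted p = 0.000308). GAR1 was at 9.49, 9.52 and 9.58 with siControl and at 9.95, 10.05 and 10.11 with siEZH2. It rose by 0.51 ± 0.11 (adjusted p = 0.000902), with 0.41 to 0.79 from its other probes. FBL, from 9.97, 9.89 and 9.84 to 10.32, 10.30 and 10.33, rose by 0.42 ± 0.10 (adjusted p = 0.00306). NOP56 (−0.22 ± 0.12), NAF1 (−0.21 ± 0.16) and LYAR (0.30 ± 0.13) did not pass. A fit to only these 6 arrays called 12 members.

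In C4-2B 1 member rose and 1 fell with siEZH2, where limma called 18.7% of all genes (10.1% higher and 8.53% lower). At an unadjusted p under 0.05 there were 7 members, against 30.2% of all genes. EMG1 was at 9.23, 9.50 and 9.08 with siControl and at 7.82, 7.88 and 7.45 with siEZH2. Every siEZH2 array was far below the controls, and EMG1 fell by 1.55 ± 0.13 (adjusted p = 8.45e-09). EZH2, the target of the siRNA, fell by 0.87 in LNCaP and by 1.02 in C4-2B, less than EMG1 in each line. Its probe was dimmer than that of EMG1, at 6.71, 6.73 and 6.73 with siControl in LNCaP and at 7.58, 7.25 and 7.76 in C4-2B. The normalisation shrinks differences of dim probes, so the sizes of the 2 falls may not be comparable. EMG1 did not pass with EPZ6438 in either line. Whether it fell through loss of EZH2 or through another effect of the siRNA was not tested. NOLC1 was at 8.84, 8.57 and 8.62 with siControl and at 9.12, 9.09 and 9.04 with siEZH2, and rose by 0.41 ± 0.10 (adjusted p = 0.00515). GAR1 (0.29 ± 0.11, adjusted p = 0.0617), NOP56 (−0.31 ± 0.12, adjusted p = 0.0679) and PES1 (−0.02 ± 0.24) did not pass. The median over the members was −0.01, and 0.24 with scaling to the all-probe median, where all genes had 0.21.

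No member passed when the siEZH2 effects of the lines were compared by limma, where 5.78% of all genes were called (3.15% higher and 2.63% lower). At an unadjusted p under 0.05 there were 5 of 37 members (19.6% of all genes), and 1 member passed in a fit to only the 4 groups concerned. For EMG1 the gap between the effects was −0.01 ± 0.18, with a 95% interval from −0.38 to 0.36. The widest gap was that of PES1 (−0.84 ± 0.34, adjusted p = 0.153).

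**Figure D4:**
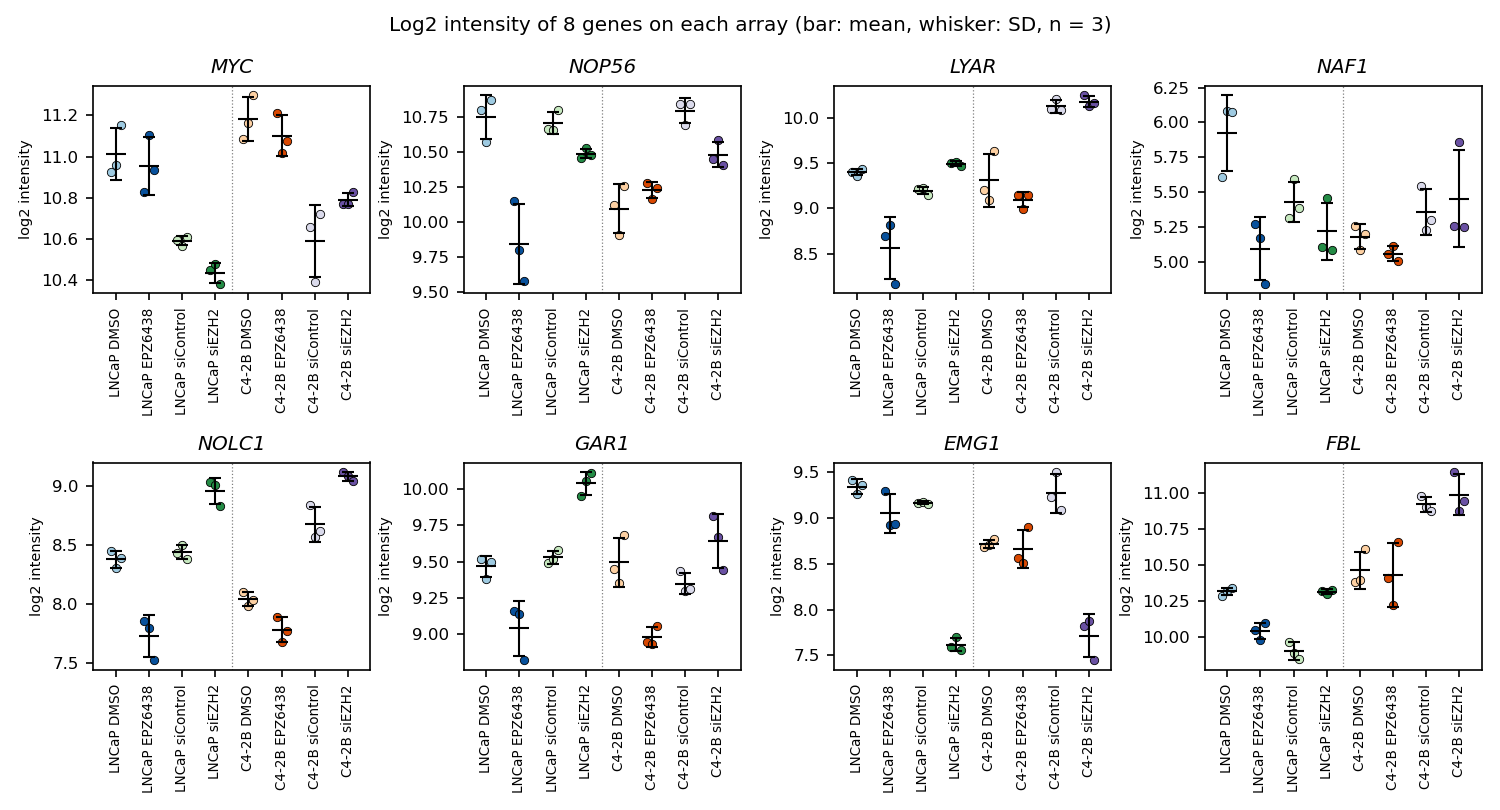
Log2 intensity of 8 members on each array, with points for the 3 arrays, a bar for the mean and whiskers for the SD; each panel has its own vertical axis, which does not start at 0. In LNCaP, the EPZ6438 arrays of NOP56, LYAR, NAF1, NOLC1 and GAR1 lie below the DMSO arrays, the siEZH2 arrays of NOLC1 and GAR1 lie above siControl, and EMG1 is low in both siEZH2 groups.

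The siEZH2 and EPZ6438 effects were compared within each line to ask whether the set differed alike after the siRNA and after the inhibitor. In LNCaP the siEZH2 effect was above the EPZ6438 effect for 12 members and below it for 1, where limma called 18.5% of all genes (8.8% higher and 9.7% lower). At an unadjusted p under 0.05 there were 19 members, against 30.3% of all genes. NOLC1 fell with the inhibitor and rose with the siRNA, a gap of 1.17 ± 0.14 (adjusted p = 2.03e-06). GAR1 did the same, a gap of 0.94 ± 0.15 (adjusted p = 9.86e-05). LYAR had a gap of 1.14 ± 0.19 (adjusted p = 0.000107) and PES1 of 1.21 ± 0.34 (adjusted p = 0.0136). All 3 box C/D proteins were among the 12, with 0.69 for NOP56, 0.69 for FBL and 0.64 for NOP58. The 1 member below was EMG1 (−1.25 ± 0.18, adjusted p = 2.08e-05). With scaling to the all-probe median 3 members passed, NOLC1, LYAR and PES1, and their gaps lay between 0.82 and 1.51 over all settings run.

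In C4-2B the siEZH2 effect was above the EPZ6438 effect for 4 members and below it for 1, where limma called 13.9% of all genes (6.61% higher and 7.26% lower). GAR1 had a gap of 0.81 ± 0.15 (adjusted p = 0.000646), NOLC1 of 0.67 ± 0.14 (adjusted p = 0.00191), DDX21 of 0.59 ± 0.15 (adjusted p = 0.00822) and NPM3 of 0.46 ± 0.14 (adjusted p = 0.0254). EMG1 was again the 1 below (−1.50 ± 0.18, adjusted p = 2.56e-06). Each of these was lost with scaling to the all-probe median, where 182 of all genes passed.

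C4-2B and LNCaP were compared in each of the control cultures to see how the set differs between the lines. In DMSO cultures 4 members were higher and 12 lower in C4-2B, where limma called 39.8% of all genes (19.9% higher and 20% lower), with a median of −0.11. At an unadjusted p under 0.05 there were 19 members, against 46.5% of all genes. In siControl cultures 14 were higher and 2 lower, where limma called 46.9% (22.6% higher and 24.3% lower), with a median of 0.24. No test of the difference between the 2 control cultures was run, and the DMSO arrays also enter the EPZ6438 comparisons above. The means over the assembly factors were 8.41 to 8.57 in LNCaP and 8.35 to 8.40 in C4-2B with DMSO, and 8.52 to 8.56 and 8.76 to 8.85 with siControl.

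Of 6 members that passed in both control cultures, 2 were higher in C4-2B in both, 2 lower in both and 2 changed sign. NPM3 (chr10:101781325-101783446) was at 10.31, 10.42 and 10.34 in LNCaP and at 10.87, 11.05 and 11.10 in C4-2B with DMSO. With siControl it was at 9.72, 9.71 and 9.60 in LNCaP and at 10.79, 10.68 and 10.91 in C4-2B. It was higher in C4-2B by 0.65 ± 0.10 and by 1.12 ± 0.10 (limma adjusted p = 7.1e-06 and 8.48e-10). DKC1 was higher by 0.41 and 0.38, and NHP2 and TSR1 were lower in both (NHP2 by −0.47 and −0.31, TSR1 by −0.31 and −0.30). GRWD1 was lower in C4-2B with DMSO (−0.67 ± 0.11, adjusted p = 3.21e-05) and higher with siControl (0.34 ± 0.11, adjusted p = 0.0159). NOP58 likewise gave −0.34 and 0.47.

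Among the largest line differences with siControl were those of FBL and LYAR. FBL was at 9.97, 9.89 and 9.84 in LNCaP and at 10.98, 10.91 and 10.88 in C4-2B, higher by 1.02 ± 0.10 (limma adjusted p = 7.65e-09), and with DMSO it differed by 0.15. LYAR was at 9.21, 9.23 and 9.15 in LNCaP and at 10.09, 10.21 and 10.08 in C4-2B, higher by 0.93 ± 0.13 (adjusted p = 2.37e-06), and with DMSO it differed by −0.09. PES1 was higher by 0.82 ± 0.24 with siControl. With DMSO the members lower in C4-2B by most were NAF1 (−0.74 ± 0.16, adjusted p = 0.000462), RRP1B (−0.72 ± 0.14, adjusted p = 0.000156) and RRP9 (−0.69 ± 0.24, adjusted p = 0.0253). RRP9 was spread from 4.74 to 5.80 on the C4-2B arrays and lost its call in 8 of 15 settings.

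**Figure D5:**
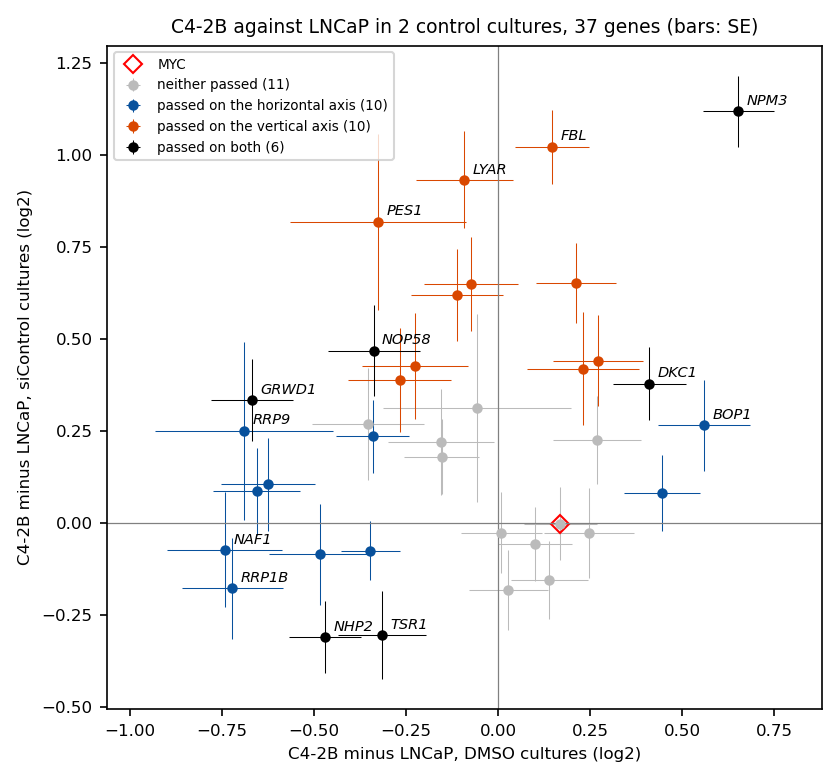
C4-2B minus LNCaP log2 difference of each of 37 members in DMSO cultures (horizontal) and siControl cultures (vertical), with bars of 1 SE and colours for the cultures in which a member passed the test (10, 10, and 6 in both). Most points lie above 0 on the siControl axis, while on the DMSO axis 22 of 37 are below 0.

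DNA replication genes also moved with the members between the lines. In C4-2B 26 of 38 were lower and 2 higher with DMSO (73.7%, against 39.8% of all genes, median −0.57). With siControl 31 were higher and none lower (81.6%, against 46.9%, median 0.75). Their median per array was 8.41 to 8.56 in LNCaP and 7.16 to 7.68 in C4-2B with DMSO, and 7.68 to 7.79 and 9.21 to 9.38 with siControl. Their part in the line differences of the members was not tested. With scaling to the all-probe median the members called were 6 with DMSO and 4 with siControl.

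Further genes of the pathway were read from lists of known function, also chosen with earlier results of these data known. Of 113 other ribosome biogenesis factors measured, none rose and 13 fell with EPZ6438 in LNCaP, and 97 of the 113 differences were negative (median −0.18). The 13 are 11.5% of the list, against 6.68% of all genes. EXOSC2, an exosome subunit, fell by 0.62 ± 0.11, MAK16, a large subunit factor, by 0.58 ± 0.11 and SENP3, a SUMO protease of the nucleolus, by 0.65 ± 0.15 (limma adjusted p = 0.00111, 0.00187 and 0.0108). In C4-2B 2 rose and 13 fell (median −0.04), 13.3% against 15.2% of all genes. With siEZH2 19 rose and 11 fell in LNCaP, 26.5% against 26.7%, and 1 rose and 12 fell in C4-2B, 11.5% against 18.7%. Over both directions these shares were at or below those of all genes. By direction, all genes had 14.2% higher and 12.5% lower in LNCaP, and 10.1% higher and 8.53% lower in C4-2B. In siControl cultures 57 were higher and 11 lower in C4-2B than in LNCaP (60.2%, against 46.9% of all genes), and with DMSO 17 were higher and 23 lower (35.4%, against 39.8%).

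Of 20 measured genes of the RNA polymerase I machinery, 2 fell with EPZ6438 in LNCaP (10%, against 6.68% of all genes) and none passed in C4-2B. With siEZH2 6 rose and 2 fell in LNCaP (40%, against 26.7%) and 2 rose and 4 fell in C4-2B (30%, against 18.7%). POLR2H, a subunit shared by the nuclear polymerases, fell by 0.89 ± 0.08 and 1.06 ± 0.08 in the 2 lines (limma adjusted p = 1.00e-08 and 2.82e-09). The 2 measured probes named for rRNA genes varied widely between arrays, and whether their signal follows the amount of rRNA was not tested. RNA28SN5 was at 6.87, 5.96 and 7.34 with siControl and at 11.46, 8.18 and 9.97 with siEZH2 in LNCaP, a rise of 3.15 ± 0.82 (adjusted p = 0.00543). It did not pass with siEZH2 in C4-2B (−1.96 ± 0.82, adjusted p = 0.101) or with EPZ6438 in LNCaP (−1.05 ± 0.82) or C4-2B (−0.68 ± 0.82). RNA18SN5 was at 7.97, 6.92 and 7.96 with siControl and at 9.21, 8.37 and 8.90 with siEZH2 in LNCaP, a rise of 1.21 ± 0.40 (adjusted p = 0.0248). In C4-2B it was at 7.52, 7.61 and 8.43 with siControl and at 7.23, 5.70 and 7.03 with siEZH2, a fall of 1.20 ± 0.40 (adjusted p = 0.0363). With EPZ6438 RNA18SN5 did not pass in either line (−1.04 ± 0.40 and 0.26 ± 0.40), and in C4-2B its sign was opposite to that of RNA28SN5.

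The ribosomal proteins, the products that these factors assemble, are a separate list. With EPZ6438 in LNCaP none of 67 measured passed in limma and their median was 0.00. With siEZH2 1 rose and 6 fell in LNCaP (10.4%, against 26.7% of all genes) and none rose and 4 fell in C4-2B (5.97%, against 18.7%). Of 14 hosts of small nucleolar RNAs, 8 fell with EPZ6438 in C4-2B (SNHG1 by 0.63 ± 0.12, SNHG17 by 0.60 ± 0.13), 57.1% against 15.2% of all genes, and none passed in LNCaP. With siEZH2 7 fell and 1 rose in LNCaP (57.1%, against 26.7%) and 4 fell in C4-2B (28.6%, against 18.7%), SNHG5 by 0.61 ± 0.12 and 0.55 ± 0.12.

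Genes outside the nucleolus that MYC is reported to induce gave a mixed picture. Of 52 measured, 7 fell and none rose with EPZ6438 in LNCaP (13.5%, against 6.68% of all genes), PTMA by 0.78 ± 0.15, TCP1 by 0.71 ± 0.12 and TIMM10 by 0.67 ± 0.14 (limma adjusted p = 0.00269, 0.00111 and 0.00491). In C4-2B 5 rose and 6 fell (21.2%, against 15.2%), led by the folate enzyme genes MTHFD2 (−1.53 ± 0.11) and MTHFD1L (−1.23 ± 0.13) and the amino acid transporter gene SLC7A5 (−1.23 ± 0.20). With siEZH2 3 rose and 12 fell in LNCaP (28.8%, against 26.7%) and 1 rose and 8 fell in C4-2B (17.3%, against 18.7%). Over both directions these shares were close to those of all genes, but most of the calls were falls. Of all genes, 14.2% were higher and 12.5% lower in LNCaP, and 10.1% higher and 8.53% lower in C4-2B. Of 15 measured partners and antagonists of MYC, 3 rose and 1 fell with siEZH2 in LNCaP (26.7%, against 26.7% of all genes). In C4-2B 3 rose and 2 fell (33.3%, against 18.7%). MLX, a partner in the MYC network, was among those that fell, by 1.01 ± 0.11 in LNCaP and 0.71 ± 0.11 in C4-2B. MXD1, an antagonist, rose by 0.58 ± 0.15 with EPZ6438 in LNCaP (limma adjusted p = 0.0187). It was the 1 gene of that list to pass there, 6.67% against 6.68% of all genes, and none passed in C4-2B.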

How the data were processed

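Total RNA of 24 samples was measured on 24 Illumina HT-12 arrays, 3 in each of 8 groups taken from the labels. The deposited unnormalised table holds an intensity and a detection p-value per probe on every array, and the authors also gave a processed intensity table. The submitters' processing notes name GenomeStudio, and its version is not given in the sources used here. No column was left unmatched (0). Intensities were background corrected and quantile normalised with neqc (offset 16, which shrinks differences of dim probes) in limma 3.58.1 under R 4.3.3. Probes detected (p under 0.05) on at least 3 arrays were kept (26278 of 47311), and the brightest kept probe of a gene was used. Fits used lmFit and eBayes, 1 mean per group, 16 residual degrees of freedom, and were tested on simulated data.

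The members and lists were chosen with earlier results of these data known. Named members are MYC, the 6 (treatments) or 4 (other comparisons) largest differences past the test with arrays that do not overlap, up to 2 more for each role, and up to 3 genes of a companion list. Same-numbered replicates correlated between −0.284 and 0.319 in their deviations from the group means. With 3 arrays a group this cannot tell whether the numbers pair the samples, and the main fit was unpaired. The promoter set used has no entry for 9 members, although all 41 have RefSeq gene coordinates. Alternatives changed the background correction, the centring, the filter, the probe rule, the prior, the arrays fitted and the replicate block, used the processed table, or left out 1 array.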

Additional observations from a re-analysis of the deposited data

Results flagged for a closer look

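By the test of the difference itself, which called 6.67% of all genes (3.24% higher and 3.43% lower), the EPZ6438 effect differed between C4-2B and LNCaP for 6 members. It was higher in C4-2B by 1.04 on the log2 scale for NOP56, by 0.78 for GRWD1, by 0.78 for POLR1B, by 0.65 for NOP58, by 0.63 for LYAR and by 0.59 for RRS1. For POLR1B the second probe had the opposite sign. The count of members was 2 without LNCaP DMSO replicate 3 and 0 with scaling to the all-probe median. The same test called 19 of the 38 DNA replication genes measured, all higher in C4-2B, and their part in the differences of the members was not tested.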

How the results depend on the processing

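Of 39 named differences that passed the test, 14 kept sign and call under every setting and none reversed. Leaving out 1 array gave 6 to 8 members called for siEZH2 in LNCaP, 2 to 3 in C4-2B, 5 to 18 for EPZ6438 in LNCaP and 3 to 5 in C4-2B. It gave 10 to 16 for the siEZH2 against the EPZ6438 effect in LNCaP and 4 to 6 in C4-2B, 0 to 0 for the siEZH2 effect and 2 to 10 for the EPZ6438 effect between lines, 14 to 17 between lines with DMSO and 12 to 15 with siControl. Where an array was left out, the 2 that remained shared the spread of the other groups.

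Scaling to the all-probe median moved the all-gene median to 0.18 and 0.21 for siEZH2 in LNCaP and C4-2B. It left 1 member for siEZH2 in C4-2B, 0 for EPZ6438 in LNCaP and in C4-2B, 3 and 0 for the siEZH2 against the EPZ6438 effect in LNCaP and C4-2B, 0 for the EPZ6438 effect between lines, and 6 and 4 between lines with DMSO and siControl. Of all genes called, the share higher became 86.2% (53.3% in the main setting) and 93.1% (54.3%) for siEZH2, and 92.9% (59.9%) and 68.3% (53.6%) for EPZ6438, in LNCaP and C4-2B. All genes called fell from 3685 to 1689, 2572 to 1047, 921 to 28 and 2093 to 265 in these comparisons. For the siEZH2 against the EPZ6438 effect the share higher became 71.2% (47.6%) in LNCaP and 67.0% (47.7%) in C4-2B, with 267 (2550) and 182 (1913) genes called. Between lines, 79 (797) genes were called for the siEZH2 effect, 27.9% higher (54.6%), 35 (920) for the EPZ6438 effect, 2195 (5493) with DMSO, 33.2% higher (49.9%), and 3312 (6468) with siControl. Centring on probes detected on all arrays left 3 for the siEZH2 against the EPZ6438 effect in C4-2B and 2 for the EPZ6438 effect between lines. All genes called were then 355 and 1257 for EPZ6438 in LNCaP and C4-2B, 466 and 459 for the siEZH2 and EPZ6438 effects between lines, and siEZH2 in C4-2B had 40.4% of its calls higher. Without background correction siEZH2 in C4-2B gave 5 members, and with a trended robust prior 4. Fits to only the arrays compared gave 12 and 4 for siEZH2 in LNCaP and C4-2B, 0 and 2 for EPZ6438, and 1 and 2 for the siEZH2 and EPZ6438 effects between lines, with 53, 1364 and 481 genes for EPZ6438 in LNCaP, in C4-2B and between lines. Leaving out 1 array gave as few as 295 and as many as 1781 genes for EPZ6438 in LNCaP and as few as 439 for the siEZH2 effect between lines. The cause was not tested.

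The replicate block gave 10 members for EPZ6438 in LNCaP and 1 for the siEZH2 effect between lines (PES1), and moved no other count by over 1.5 times. Lines compared within 1 control culture had no block fit.

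MYC, never called, reversed sign with scaling to the all-probe median for siEZH2 in LNCaP (0.114), siEZH2 against EPZ6438 in LNCaP (0.245), EPZ6438 between lines (0.0791), and lines with DMSO (−0.0553) and siControl (0.0323). With the mean of its probes it reversed to 0.0498 and 0.115 in the first 2 of these, 0.00889 for EPZ6438 in C4-2B, 0.0737 for EPZ6438 between lines and 0.107 for lines with siControl, where centring on detected probes gave 0.0979. Leaving out 1 array gave −0.132 to 0.0136 for EPZ6438 in LNCaP, −0.0949 to 0.0509 for EPZ6438 between lines and −0.0659 to 0.0985 for lines with siControl. Dim members such as POLR1B, NAF1, UTP20 and WDR74 lie nearer to background, where the offset shrinks differences.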
